A study of Rattus norvegicus with 36 samples.

Results

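The proteasome is the large protease that degrades ubiquitin-tagged proteins, and its constitutive subunits were followed here across rat mammary cancers. The set comprised every probe set whose single gene symbol began with Psma, Psmb, Psmc, Psmd or Psme and a number, without the interferon-inducible catalytic subunits Psmb8, Psmb9 and Psmb10. It held 52 of the 31099 probe sets and 38 of the 14218 genes that a single-symbol probe set represented. Of the 38 genes, 36 encode subunits, assembly chaperones or activators of the proteasome. The other 2 share only the letters of the symbol: Psmc3ip encodes a partner of a base ATPase that acts in meiotic recombination, and Psme3ip1 encodes a protein that binds the PA28γ activator. All 38 symbols were the same in RefSeq. The catalytic subunit gene Psmb6 and the activator gene Psme3 were represented only by probe sets that carry several symbols and were not analysed here.

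Gene expression had been measured on 36 single-colour oligonucleotide arrays from female Sprague-Dawley rats, 33 of which held RNA of mammary cancers and 3 RNA of normal mammary glands. The cancers arose after whole-body gamma radiation alone (1 Gy, n = 4, counted here as H-ras nonmutated). Some arose after radiation and the alkylating carcinogen MNU (1 Gy and 40 mg/kg, 5 H-ras mutated and 4 nonmutated). Further ones arose after radiation and the cooked-meat mutagen PhIP (1 Gy and 40 mg/kg/day, 4 nonmutated). Others arose after MNU alone (40 mg/kg, 5 mutated and 4 nonmutated), after PhIP alone (40 mg/kg/day, 1 mutated and 3 nonmutated), or without treatment (spontaneous, n = 3, nonmutated). The normal tissue came from untreated rats (n = 3). Rats were treated when 7 weeks old, with 3 days between radiation and the chemical, and all rats, the normal ones included, ate AIN-76A feed with 23.5% corn oil from 9 weeks. The labels give no age at collection, no batch and no statement that each cancer came from a separate rat, so p-values measure the spread between these samples, which may be partly technical. In bulk tissue, fewer cells of a type and less RNA per cell cannot be told apart.

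As background, the 26S proteasome consists of a barrel, the 20S core, and a cap, the 19S regulatory particle. The alpha rings (Psma genes) gate the barrel, and its beta rings (Psmb genes) hold the active sites. The cap's base (Psmc ATPases with Psmd1, Psmd2 and Psmd4) unfolds substrates, and its lid removes ubiquitin. Under interferon, Psmb8, Psmb9 and Psmb10 replace the constitutive catalytic subunits Psmb5, Psmb6 and Psmb7 in the immunoproteasome, and PA28αβ (Psme1 and Psme2) opens the barrel for peptides that reach class I antigen presentation. PA200 (Psme4) is a separate cap, studied in mice and human cells for its role in breaking down acetylated histones in spermatogenesis and DNA repair.

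The start regions of 5 genes are shown first: the 3 activator genes, which differed between cancers and normal tissue, Psmb10, the inducible subunit that tracked Psme1 most closely, and Psma5, a barrel gene near the shared pattern of the core. The sequences are from RefSeq on build GRCr8 and run from 250 bases before to 50 bases after the start that its table of start regions uses, 5′ to 3′ on the gene's strand. That start lies 304 bases inside the outermost annotated end of Psme2, 9 inside that of Psme1 and 3 inside that of Psma5, and at the end itself for Psmb10 and Psme4, so the Psme2 window lies within the annotated gene. Capitals mark matches to a motif in the interferon-stimulated response core (GAAA, any 2 bases, then GAAA), in the antioxidant response core (TGACNNNGC) or in the CCAAT box, each searched on both strands, and the match in Psme4 lies on the opposite strand.
Psme2, chr15:33052702-33053001, minus strand: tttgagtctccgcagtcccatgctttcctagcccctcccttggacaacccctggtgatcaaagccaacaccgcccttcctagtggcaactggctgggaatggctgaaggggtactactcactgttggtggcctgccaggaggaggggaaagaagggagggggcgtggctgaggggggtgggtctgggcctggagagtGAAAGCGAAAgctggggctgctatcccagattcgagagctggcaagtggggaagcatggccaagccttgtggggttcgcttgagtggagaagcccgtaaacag
Psme1, chr15:33038721-33039020, plus strand: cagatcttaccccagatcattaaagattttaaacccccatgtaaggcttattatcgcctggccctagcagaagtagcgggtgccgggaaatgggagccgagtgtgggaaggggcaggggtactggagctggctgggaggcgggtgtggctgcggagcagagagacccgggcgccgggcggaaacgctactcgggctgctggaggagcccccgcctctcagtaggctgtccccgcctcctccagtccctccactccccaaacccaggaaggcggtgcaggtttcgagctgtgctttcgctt
Psmb10, chr19:50743243-50743542, minus strand: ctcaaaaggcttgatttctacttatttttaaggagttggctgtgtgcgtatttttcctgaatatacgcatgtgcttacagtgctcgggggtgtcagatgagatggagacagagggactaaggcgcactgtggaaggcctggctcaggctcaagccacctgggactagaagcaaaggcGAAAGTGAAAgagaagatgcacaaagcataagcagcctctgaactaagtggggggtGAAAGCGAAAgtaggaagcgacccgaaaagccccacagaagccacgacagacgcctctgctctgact
Psme4, chr14:108706393-108706692, plus strand: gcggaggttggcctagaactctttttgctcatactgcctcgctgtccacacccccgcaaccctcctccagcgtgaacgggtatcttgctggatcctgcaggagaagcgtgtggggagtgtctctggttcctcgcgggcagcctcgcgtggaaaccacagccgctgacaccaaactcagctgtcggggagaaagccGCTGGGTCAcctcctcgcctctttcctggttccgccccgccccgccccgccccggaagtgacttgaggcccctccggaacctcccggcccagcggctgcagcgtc
Psma5, chr2:198584255-198584554, plus strand: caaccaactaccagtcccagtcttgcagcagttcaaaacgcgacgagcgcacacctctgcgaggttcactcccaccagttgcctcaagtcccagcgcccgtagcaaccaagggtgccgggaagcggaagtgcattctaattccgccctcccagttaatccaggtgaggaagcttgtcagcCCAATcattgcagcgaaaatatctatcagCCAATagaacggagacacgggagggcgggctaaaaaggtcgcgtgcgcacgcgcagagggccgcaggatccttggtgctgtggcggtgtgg

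The interferon-stimulated core stood in the windows of Psme2 and Psmb10, and no match to it was found in those of Psme1 and Psme4. Of the other inducible subunits, whose windows are not shown, Psmb8 had 1 match to it and Psmb9 had 0. RefSeq windows were available for 34 of the 38 members, all but Psma7, Psmd6, Psmd12 and Psmd14. The interferon-stimulated core was in 4 of these 34 windows (Psma4, Psmb3, Psmd7 and Psme2), beside 3.92% of all 33469 windows of the same length. The antioxidant response core was in 7 of 34 members, beside 12.1% of all windows. The CCAAT box was in 18 of 34 members, beside 37.5% of all windows, and Psma5 had 2 copies. The palindrome TTCNNNGAA, the spacing that STAT factors prefer, was in 3 of 34 members, beside 8.87% of all windows. These matches are descriptions of the letters. Psme1 and Psme2, the pair that forms PA28, lie close to each other on chromosome 15, with 6602 bases between the outermost annotated ends of the 2 genes. Whether other genes lie between them was not examined.

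The 33 cancers were first compared with the normal tissue. None of the 30 barrel and cap subunit genes of the set passed the test in either direction, while all 3 activator genes measured did: Psme4 fell, and Psme2 and Psme1 rose. In all, 4 of the 38 members passed adjusted p under 0.05 in limma's test, 2 higher and 2 lower in the cancers, where 34.4% of the 11773 genes tested passed, 18% higher and 16.3% lower. The fourth was Psme3ip1, which is no subunit. Without normal replicate 3, Psme4 and Psme2 were the members that passed. All 38 genes had passed the filter on low intensity, in 49 of their 52 probe sets.

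Psme4 had the largest difference of any member. Its log2 intensity in the 33 cancers ran from 10.66 to 11.78 with a median of 11.22, against 12.28, 12.27 and 12.65 in the 3 normal tissues. All 33 cancers lay below all 3 normal tissues, the only member for which the groups did not overlap, where 8.18% of all genes did not overlap in either direction. The means were 11.22 ± 0.21 in cancers and 12.40 ± 0.21 in normal tissue (SD, n = 33 and n = 3), a log2 difference of -1.18 ± 0.14 (SE), with adjusted p = 3.04e-07 in limma's test. The exact permutation test over all 7140 arrangements gave the smallest p it allows, 0.00014 (two-sided). The lower level was seen in every cancer group, whose means ran from 11.14 in H-ras-mutated MNU cancers to 11.33 in the single mutated PhIP cancer. The other 2 probe sets of Psme4 were also lower in cancers when every probe set was tested on its own, at log2 differences of -0.58 ± 0.12 (adjusted p = 0.000732) and -1.23 ± 0.22 (adjusted p = 8.32e-05), in a fit where 30.5% of the probe sets passed.

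Psme2, the beta chain of PA28, was higher in the cancers. Its log2 intensity there ran from 10.96 to 11.89 with a median of 11.43, against 11.10, 10.72 and 10.79 in normal tissue. Of the 33 cancers, 29 lay above every normal tissue. The means were 11.39 ± 0.24 in cancers and 10.87 ± 0.20 in normal tissue (SD), a log2 difference of 0.52 ± 0.13 (SE, adjusted p = 0.00305 in limma's test; exact permutation p = 0.0007). Among the cancer groups the highest mean was 11.61 in nonmutated PhIP cancers and the lowest, apart from the single mutated PhIP cancer at 11.19, was 11.24 in nonmutated cancers after radiation and MNU.

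Psme1, the alpha chain of PA28, rose less. It ran from 12.08 to 12.77 with a median of 12.46 in the cancers, against 12.41, 11.99 and 11.99 in normal tissue. The groups overlapped, and 20 of the 33 cancers lay above all 3 normal tissues. The means were 12.45 ± 0.17 in cancers and 12.13 ± 0.24 in normal tissue, a log2 difference of 0.32 ± 0.11 (SE, adjusted p = 0.0265 in limma's test; exact permutation p = 0.00462). A second Psme1 probe set, dimmer and above the filter on 18 arrays, had a log2 difference of -0.53 ± 0.22 (adjusted p = 0.0672), so the 2 probe sets of the gene disagreed. Without normal replicate 2 or without normal replicate 3, the difference of the brighter one was 0.26 (adjusted p = 0.175) or 0.25 (adjusted p = 0.184) and no longer passed.

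Psme3ip1 was at 9.83 to 10.52 (median 10.11) in the cancers, against 10.32, 10.38 and 10.44 in normal tissue, and 31 of the 33 cancers lay below every normal tissue. The log2 difference was -0.25 ± 0.09 (SE, adjusted p = 0.0237 in limma's test; exact permutation p = 0.0028). It did not pass without normal replicate 2 (adjusted p = 0.0802) or without normal replicate 3 (adjusted p = 0.132). Psmc3ip, the other gene that is no subunit, had a log2 difference of 0.33 (adjusted p = 0.149).

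**Figure D1:**
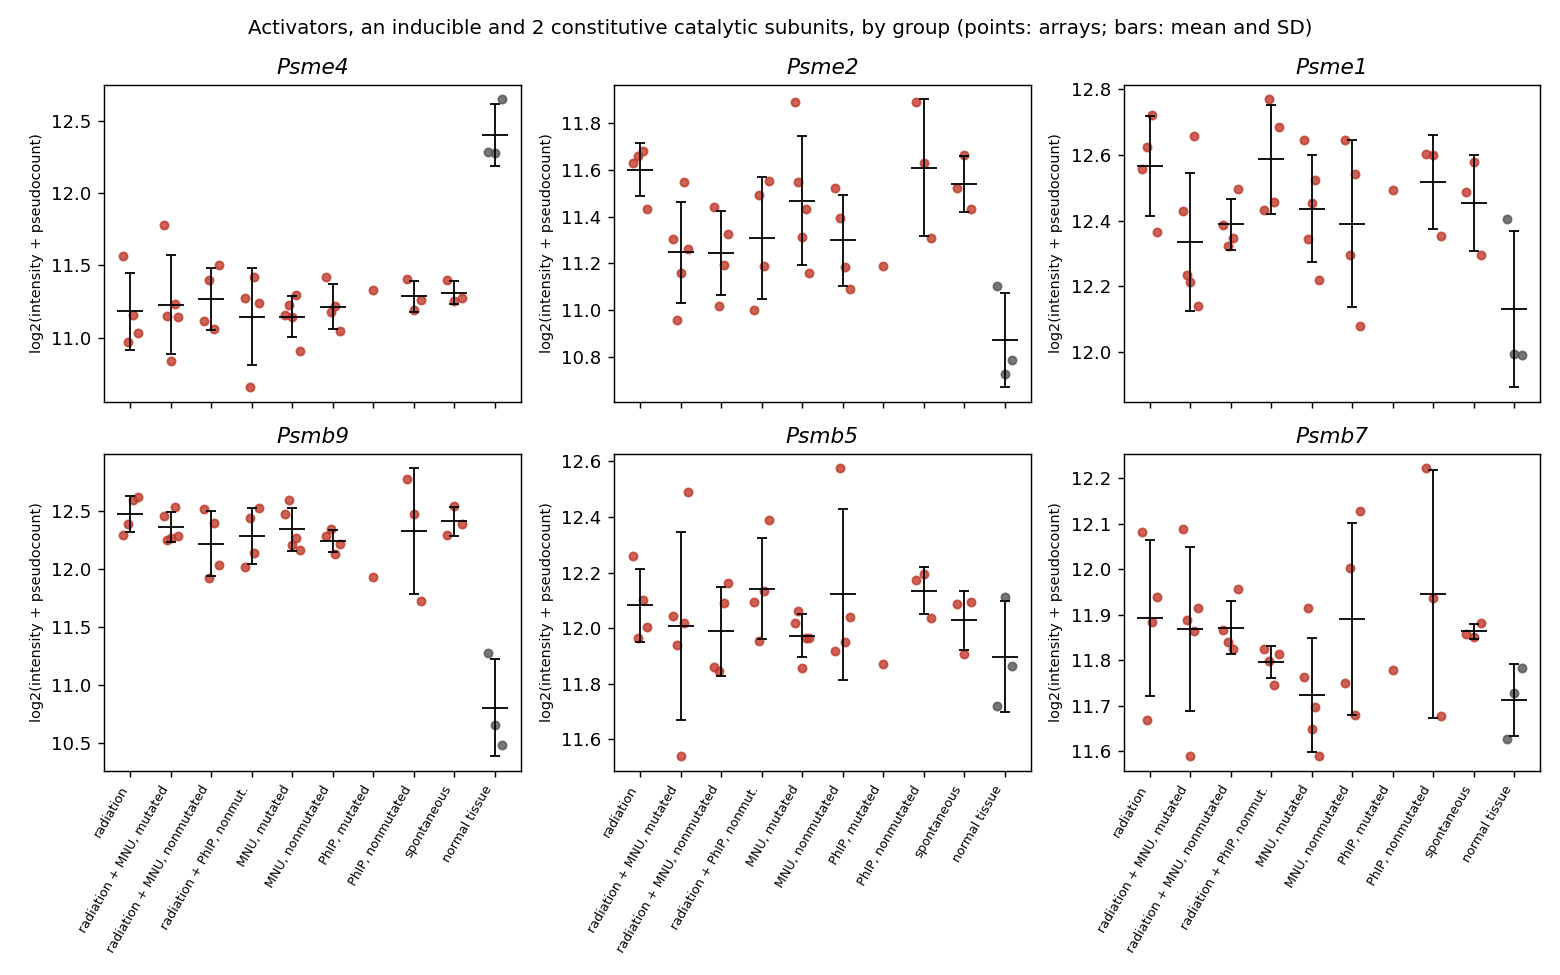
Log2(intensity + 42.8) of Psme4, Psme2, Psme1, Psmb9, Psmb5 and Psmb7 on each of the 36 arrays (points), by label group, with the mean and SD of each group of over 1 array as bars; normal tissue is at the right. All 33 cancers lie below the 3 normal tissues for Psme4 and above them for Psmb9, while the groups overlap for Psmb5 and Psmb7.

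Of the constitutive catalytic subunit genes, neither Psmb5 nor Psmb7 passed the test between cancers and normal tissue, though Psmb7 did with quantile normalization (0.24, adjusted p = 0.0311). Psmb5, the chymotrypsin-like subunit, ran from 11.54 to 12.57 with a median of 12.04 in the cancers, against 11.72, 12.11 and 11.86 in normal tissue. Its log2 difference was 0.15 with a 95% interval of -0.11 to 0.41 (adjusted p = 0.371 in limma's test), and it ran from 0.06 to 0.26 when single arrays were left out. A second, dimmer Psmb5 probe set, above the filter on 10 arrays, had -0.49 (adjusted p = 0.236). Psmb7, the trypsin-like subunit, ran from 11.59 to 12.22 with a median of 11.85 in the cancers, against 11.63, 11.73 and 11.78 in normal tissue. Its log2 difference was 0.13 with a 95% interval of -0.06 to 0.33 (adjusted p = 0.293). The intervals allow changes of up to 0.41 and 0.33 on the log2 scale, so small differences cannot be told from none.

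No structural subunit gene of the barrel passed either. Among the 7 alpha-ring genes, which gate the entrance, the log2 differences ran from -0.16 (Psma6, adjusted p = 0.162) to 0.25 (Psma4, adjusted p = 0.0979), with Psma1 at 0.23 (adjusted p = 0.0557), Psma3 at 0.21, Psma5 at 0.20, Psma2 at 0.07 and Psma7 at 0.02. Among the 4 structural beta genes, Psmb4 had 0.21 (adjusted p = 0.0519), Psmb3 had -0.02, Psmb2 had -0.08 and Psmb1 had -0.11. Psma1, Psma4 and Psmb4 did pass with quantile normalization and with the hexokinase ratio as a covariate, the settings in which 7 and 6 members were higher in the cancers. Psmb4 was close to the threshold and passed on leaving out any of 10 of the 36 arrays, 1 at a time, and Psma1 on leaving out any of 4.

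The base of the cap had the smallest median sizes of difference by role, 0.05 for its ATPase genes and 0.03 for its scaffold and receptor genes, and none passed. The 6 ATPase genes, whose products thread the substrate into the barrel, ran from -0.12 (Psmc5) to 0.13 (Psmc4), with Psmc3 at 0.10 and Psmc1, Psmc2 and Psmc6 at -0.01, 0.01 and 0.01. The scaffold Psmd2 had 0.03 and its partner Psmd1 had -0.01, and the ubiquitin receptor Psmd4 had 0.17 (adjusted p = 0.155).

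Among the 8 lid genes the differences ran from -0.13 (Psmd13) to 0.43 (Psmd14), with the others between -0.03 and 0.14. Psmd14, the deubiquitinase of the lid, ran from 10.21 to 11.72 in the cancers, against 10.52, 10.21 and 10.35 in normal tissue, and 28 of 33 cancers lay above every normal tissue. Its adjusted p was 0.0717. Of its other 2 probe sets, 1 had 0.71 (adjusted p = 0.017) and 1 had -0.21 (adjusted p = 0.551), so the 3 probe sets did not give 1 direction. The assembly chaperone genes Psmd5, Psmd9 and Psmd10, which help build the base, had 0.31 (adjusted p = 0.0744), -0.13 and 0.03.

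Over the 30 subunit genes of the barrel and the cap, none passed the test and 5 had an unadjusted p under 0.05. Their log2 differences had a median of 0.03 and a median size of 0.11, beside 0.02 and 0.27 over all genes tested. The 95% intervals of all 30 lay within a 2-fold change, which was so for 76.9% of all genes. Over all 38 members, 10 had an unadjusted p under 0.05 (26.3%), beside 44.2% of all genes.

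**Figure D2:**
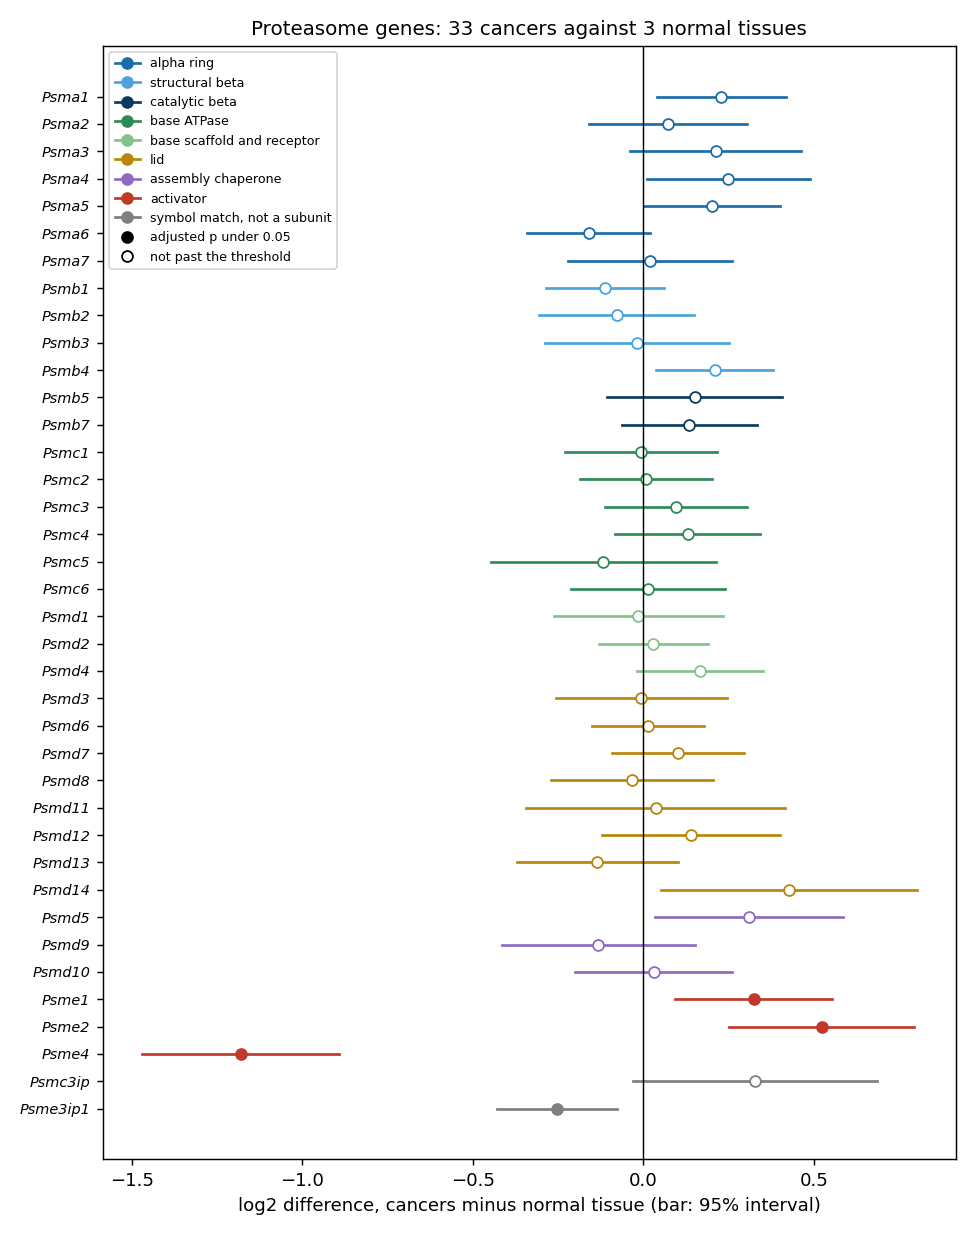
Log2 difference of each of the 38 genes, cancers minus normal tissue (n = 33 and n = 3), as a point with its 95% interval, ordered and coloured by role; filled points passed adjusted p under 0.05. The activator genes Psme4 (-1.18), Psme2 (0.52) and Psme1 (0.32) and Psme3ip1 (-0.25) are filled, and the 30 subunit genes lie between -0.16 and 0.43.

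RNA markers of cell types also differed between the groups, where 18% of all genes tested were higher in the cancers and 16.3% lower. Of the 12 adipocyte markers measured, 11 were lower in the cancers, and the mean of the list ran from 7.37 to 8.36 in cancers against 10.87 to 11.59 in normal tissue, with Pck1 at -4.89, Cidec at -5.07 and Adipoq at -4.52 on the log2 scale. Of the 14 luminal epithelial markers, 9 were higher and 1 lower, and the list mean ran from 11.04 to 11.78 in cancers against 10.59 to 11.24 in normal tissue. Of the 13 macrophage markers, 6 were lower, and the list mean ran from 9.04 to 11.04 in cancers against 10.29 to 10.67 in normal tissue. Of the 8 T cell markers, 1 was lower (list mean 7.10 to 8.59 against 8.07 to 8.18), and of the 8 skeletal muscle markers, none passed limma's test and 1 had an unadjusted p under 0.05 (7.02 to 10.35 against 7.83 to 8.17). The part of these shifts in the values of Psme4, Psme2, Psme1 and Psme3ip1 was not tested.

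The inducible subunits were set beside the constitutive ones. Psmb9, the inducible partner of Psmb6, ran from 11.72 to 12.78 in the cancers against 11.27, 10.65 and 10.48 in normal tissue, and all 33 cancers lay above every normal tissue. Its log2 difference was 1.52 ± 0.15 (SE, adjusted p = 1.31e-08 in limma's test). Psmb8, the inducible partner of Psmb5, had 0.36 ± 0.13 (adjusted p = 0.036), and Psmb10, the partner of Psmb7, had 0.01 ± 0.18 (adjusted p = 0.964). Psmb6, the partner of Psmb9, was not analysed, so a test added after the results were known covered only the other 2 pairs. In each of these, the difference between the inducible and the constitutive subunit on the same array was compared between the groups. For Psmb8 over Psmb5 it changed by 0.21 (cancers 0.11 ± 0.30, normal tissue -0.10 ± 0.32; exact permutation p = 0.266, adjusted over the 2 pairs 0.532). For Psmb10 over Psmb7 it changed by -0.12 (cancers -1.60 ± 0.36, normal tissue -1.48 ± 0.32; exact permutation p = 0.562, adjusted 0.562). Neither of these 2 ratios moved beyond the spread of the arrays, and that of Psmb9 to Psmb6 could not be compared.

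Other genes of the pathway were taken from lists of genes that work with the proteasome. Of the 6 assembly factors measured, Pomp, which matures the barrel, was lower in the cancers (12.53 ± 0.13 in cancers and 12.88 ± 0.08 in normal tissue; log2 difference -0.36 ± 0.08, adjusted p = 0.00128). The other 5 did not pass: Psmg1 to Psmg4 had 0.23, 0.09, 0.07 and 0.01, and Akirin2, which carries the proteasome into the nucleus, had 0.17. Of the 17 associated and regulatory genes measured, 4 rose and 1 fell, a share of 29.4% that is near the 34.4% of all genes. The ubiquitin shuttle Ubqln2 had 0.70 ± 0.14 (adjusted p = 0.000401), the Vcp cofactor Ufd1 had 0.42 ± 0.10 (adjusted p = 0.00237), the inhibitor Psmf1 had 0.31 ± 0.08 (adjusted p = 0.00421) and the shuttle Ubqln1 had 0.30 ± 0.10 (adjusted p = 0.0161). The small lid subunit Sem1 had -0.21 ± 0.08 (adjusted p = 0.0495). The E1 enzymes Uba1 and Uba6 had 0.21 (adjusted p = 0.0673) and 0.11 (adjusted p = 0.374). Of the 9 interferon-response genes measured, Tap1 and Tap2, which carry peptides to class I molecules, rose (0.65 and 0.91), and Cxcl10, Ifit3 and Ifit2 fell (-1.21, -0.98 and -0.89). These 5 are 55.6% of the list, beside 34.4% of all genes in either direction.

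Whether the activators moved with the inducible subunits from cancer to cancer was tested over the 33 cancers, in 10 pairs with two-sided permutation tests (100000 arrangements) adjusted over the pairs. Psme1 and Psme2 moved together (Pearson's r = 0.68, Spearman's rho = 0.71, permutation p = 2e-05 and 1e-05, adjusted p = 0.0001 and 3.333e-05). The closest pair was Psme1 with Psmb10 (r = 0.81, rho = 0.83, permutation p = 1e-05 for each, the smallest these permutations can give, adjusted p = 0.0001 and 3.333e-05). Without the 2 cancers farthest from the median of Psme1, r was 0.67 with Psme2 and 0.77 with Psmb10. Psme1 with Psmb8 had r = 0.53 and rho = 0.57 (permutation p = 0.00151 and 0.00077, adjusted p = 0.00302 and 0.00154; r = 0.43 without the 2 farthest). Psme1 with Psmb9 had r = 0.34 and rho = 0.38 (permutation p = 0.0499 and 0.0298), which gave adjusted p = 0.0713 and 0.0426, so the 2 measures fell on different sides of the threshold.

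Psme2 was tied to each of the 3 inducible subunits. With Psmb9 it had r = 0.69 and rho = 0.76 (permutation p = 4e-05 and 1e-05), with Psmb10 r = 0.65 and rho = 0.62 (permutation p = 4e-05 and 0.00016), and with Psmb8 r = 0.53 and rho = 0.55 (permutation p = 0.00192 and 0.00132). The adjusted p-values ran from 3.333e-05 to 0.0032, and without the 2 farthest cancers r was 0.66, 0.61 and 0.47. No pair with Psme4 passed: its r with Psmb8, Psmb9 and Psmb10 was -0.06, -0.14 and 0.11, and its rho 0.02, -0.17 and 0.30 (permutation p of r = 0.756, 0.444 and 0.522, adjusted p = 0.756, 0.555 and 0.58; adjusted p of rho between 0.112 and 0.916). The labels give no batch, so within-batch values could not be had. With each cancer set against its own group mean (32 cancers in groups of over 1), r was 0.75 for Psme1 with Psme2, 0.81 for Psme1 with Psmb10 and 0.71 for Psme2 with Psmb9.

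The barrel and cap genes also moved together from array to array. To describe this, each array was set against the mean of its own group, over the 35 arrays in groups of over 1, and each of the 30 subunit genes was correlated with the mean of the other subunits. The median r was 0.75, and 28 of the 30 genes were above 0.5, where 8.25% of all genes tested and 10.5% of the genes at least as bright as the dimmest member were. The genes nearest to the shared pattern were Psmd2 (r = 0.91), the base scaffold, and the alpha-ring genes Psma5 and Psma2 (0.90 each). Of the 435 pairs of subunit genes, 411 had a positive r, with a median of 0.55. These arrays share their scaling, labelling and tissue makeup, so the values are given as a description.

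A few members stood outside this pattern. The lid gene Psmd11 had r = -0.16, and its other 2 probe sets had 0.28 and -0.08, the last of them above the filter on 0 arrays. The probe sets of Psmb5 and Psmc4 that failed the filter had -0.31 and -0.12, beside 0.52 and 0.81 for the brightest ones of these genes. Another Psmb5 probe set, which passed and was above the filter on 10 arrays, had -0.17. Probe sets of a gene thus disagreed whether or not they passed the filter. The ATPase Psmc6 had 0.42, with -0.03 and -0.07 for its other 2 probe sets, which passed the filter. The chaperone Psmd10 had 0.00, beside 0.83 for Psmd9 and 0.51 for Psmd5. The activators had -0.05 (Psme1), 0.36 (Psme2) and 0.35 (Psme4).

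Some other genes of the proteasome pathway shared the pattern and some did not. Of the 6 assembly factors, 4 were above 0.5, with Psmg1 at 0.81 and Pomp at 0.70, while Akirin2 had -0.17. Of the 17 associated genes, 7 were above 0.5, with Uchl5 at 0.76, Sem1 at 0.74 and Adrm1 at 0.72, and 4 were below 0: Zfand5 (-0.62), Ubqln4 (-0.46), Ddi2 (-0.45) and Nfe2l1 (-0.37). The inducible subunits had -0.08 (Psmb8), 0.41 (Psmb9) and 0.01 (Psmb10). All 10 cell cycle genes had r above 0.5, from 0.55 (Mcm2) to 0.80 (Ccnb1), with a median of 0.72. None of the adipocyte, luminal, macrophage, T cell, muscle or interferon-response genes measured was above 0.5, and some were well below 0. Adipocyte genes ran from -0.56 (Lpl) to 0.27, luminal genes from -0.57 (Elf5) to 0.42 and macrophage genes from -0.48 (Cd14) to 0.23. T cell genes ran from -0.33 to 0.02, muscle genes from -0.42 (Actn3) to 0.15 and interferon-response genes from -0.39 (Irf1) to 0.15. In the comparison with normal tissue, 4 of the 10 cell cycle genes were higher in the cancers, among them Top2a at 0.97 (adjusted p = 0.00966) and Mcm2 at 0.82 (adjusted p = 0.012). Over all genes tested, 18% were higher and 34.4% passed in either direction.

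**Figure D3:**
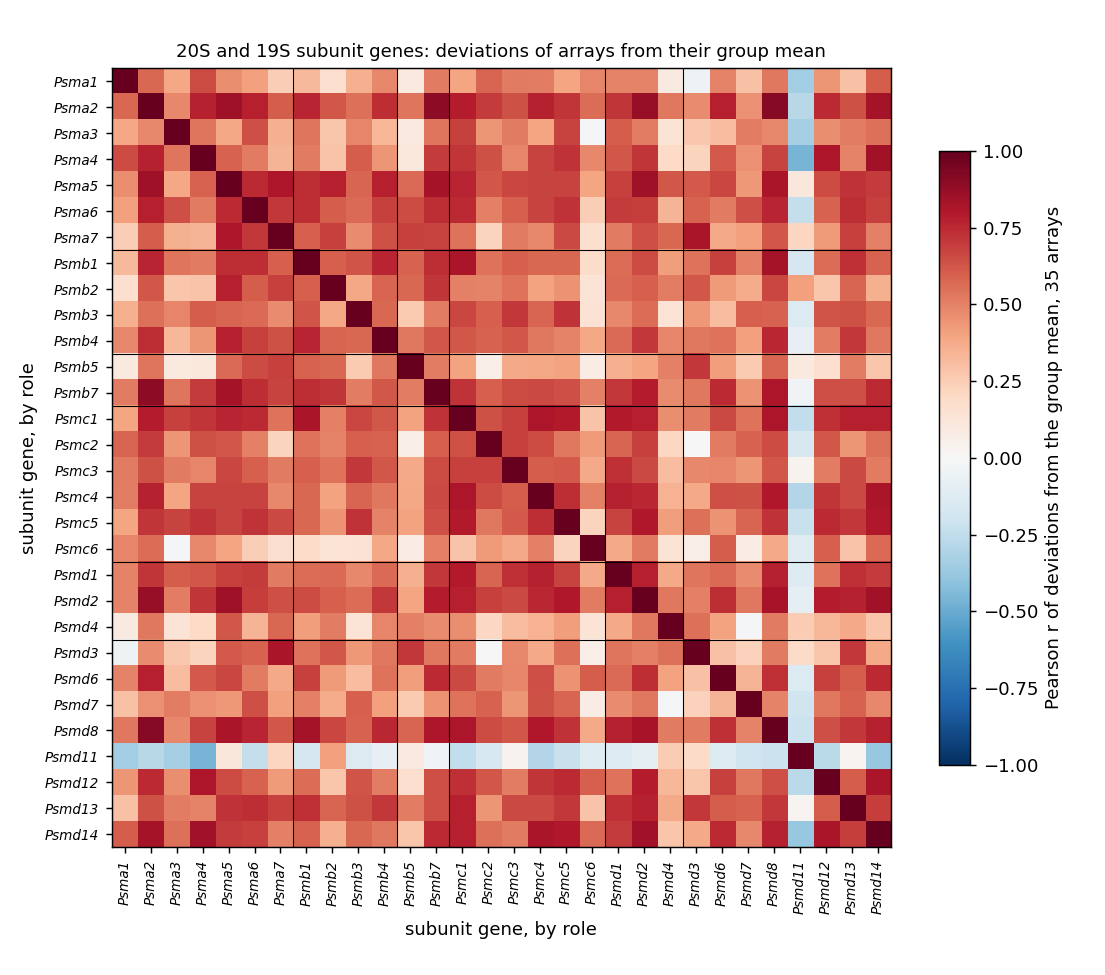
Pearson's r between each pair of the 30 barrel and cap genes, of deviations from the group mean over 35 arrays, ordered by role with lines between roles. Most cells are red (411 of 435 pairs positive, median 0.55), and the row of Psmd11 stands apart.

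RNA quality varied in 1 array in particular. The ratio of the 3′ to the 5′ hexokinase control probe set ran from 1.66 to 4.66 on 35 arrays and was 12.3 in nonmutated MNU cancer 4. That array had the highest Psmd14 (11.72) and Psmc6 (11.09) and the lowest Psmd11 (10.82) of all 36, and the part of RNA quality in these values was not tested. Leaving out each array in turn kept the median r of the subunit genes between 0.71 and 0.77. The mean of the 30 subunit genes was 11.28 ± 0.12 in the cancers, from 11.03 to 11.53, and 11.21 ± 0.004 in normal tissue (SD, n = 33 and n = 3). By group the mean ran from 11.21 in the mutated PhIP cancer and 11.22 in mutated MNU cancers to 11.38 in nonmutated PhIP cancers, with SDs of 0.05 to 0.18.

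**Figure D4:**
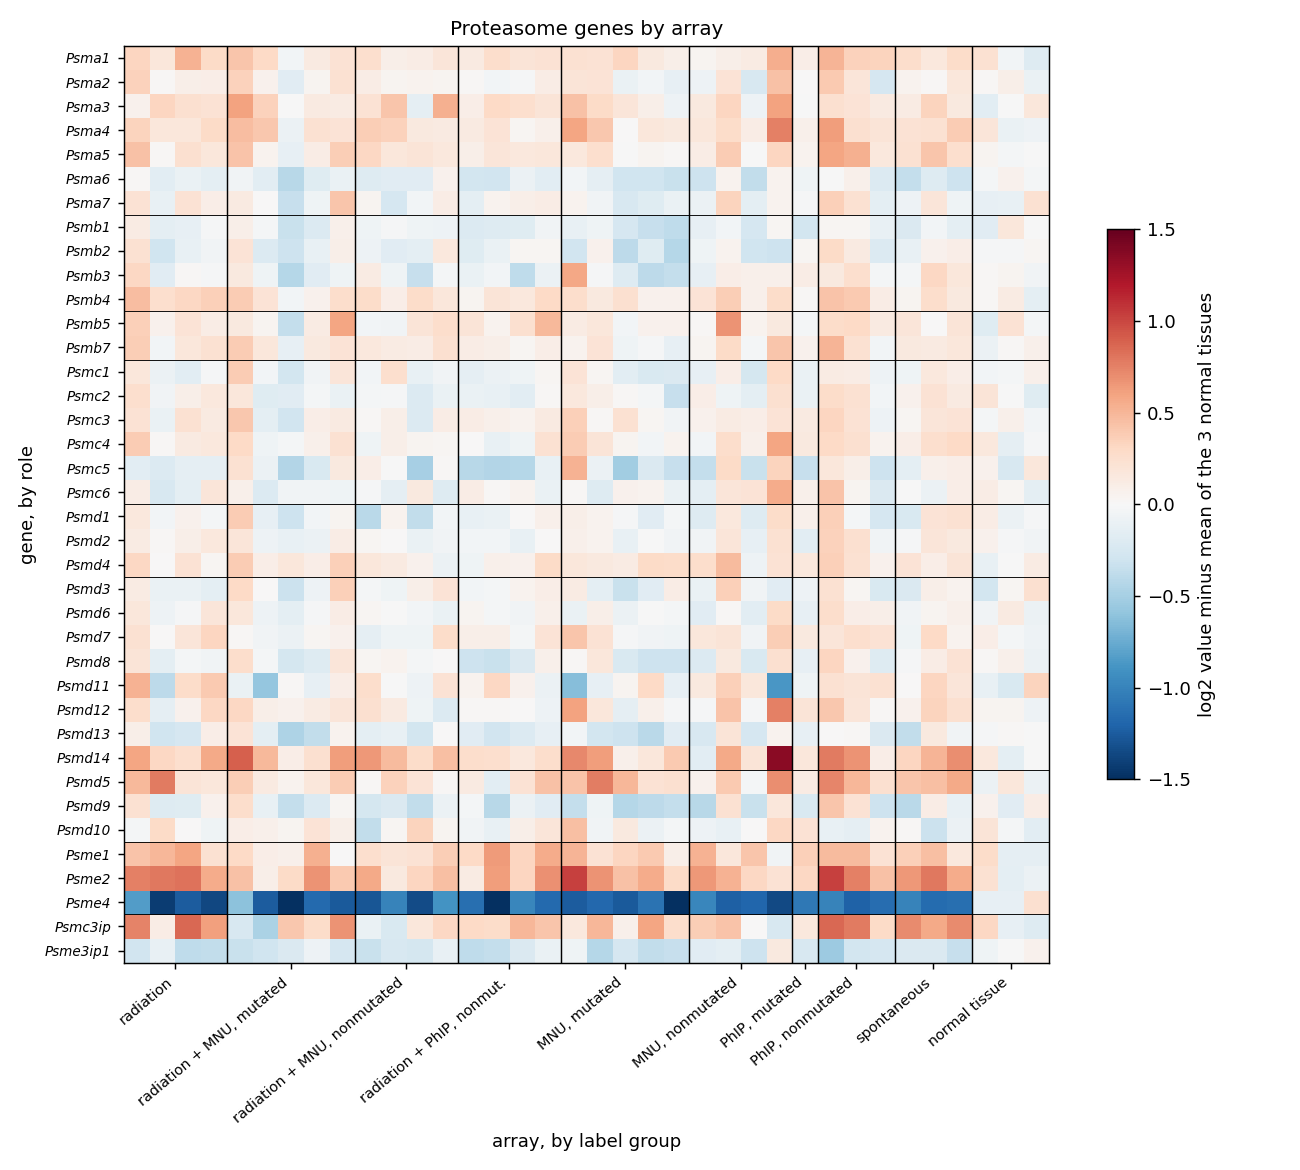
Each of the 38 genes (rows, by role) on each of the 36 arrays (columns, by label group, normal tissue at the right), as the log2 value minus the mean of the 3 normal tissues. The row of Psme4 is blue in all 33 cancers, Psme2 is red in most, and most barrel and cap rows are pale, that of Psmd14 less so.

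The members also varied little within a group. The within-group SD of the 38 genes had a median of 0.18 on the log2 scale, beside 0.26 for all genes tested and 0.22 for genes at least as bright as the dimmest member. Of the 38, 34 were below the median of all genes, as were 63.1% of the genes at least as bright as the dimmest member. Against the median of those bright genes, 31 of the 38 were below. The steadiest were Psmd2 (0.11), Psmd6 (0.12) and Psmb4 (0.12), and the most variable were Psmd11 (0.32), Psmd14 (0.31) and Psmc3ip (0.30).

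**Figure D5:**
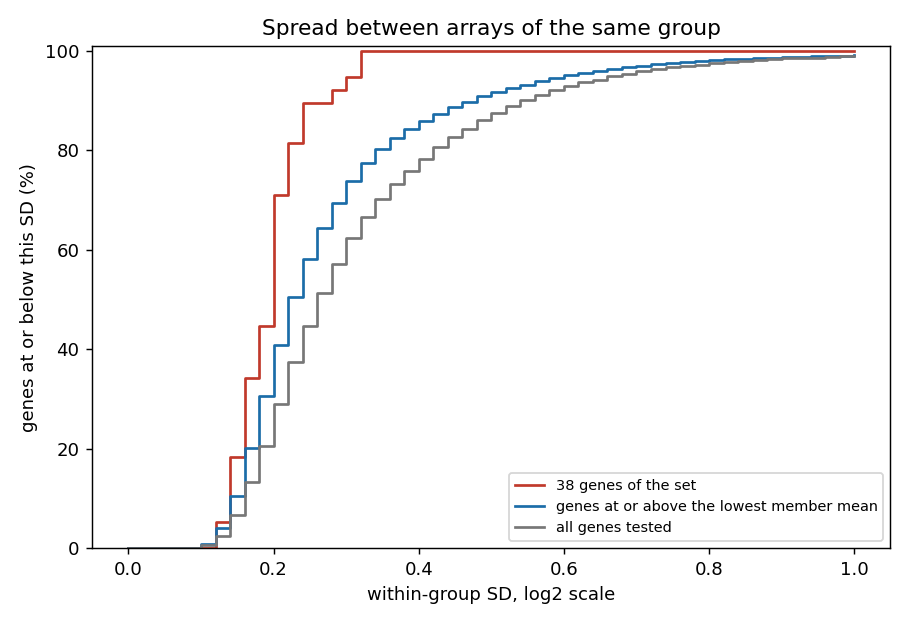
Share of genes (percent, vertical) with a within-group SD at or below the value on the horizontal axis (log2 scale), for the 38 genes of the set, for genes at least as bright as the dimmest member and for all 11773 genes tested. The curve of the 38 genes lies left of the others, with medians of 0.18, 0.22 and 0.26.

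The second comparison asked whether an H-ras mutation went with a change, as the mean of the differences in MNU cancers and in cancers after radiation and MNU. No member passed in limma's test and none had an unadjusted p under 0.05, where 0% of all genes passed. The smallest unadjusted p was that of Psmc6 (10.49 ± 0.10 in mutated and 10.61 ± 0.25 in nonmutated cancers, n = 10 and n = 8; log2 difference -0.12, adjusted p = 0.792), followed by Psme3ip1 at -0.08 and Psmb1 at -0.08. Psmc6 ran from 10.33 to 10.61 in mutated cancers and from 10.34 to 11.09 in nonmutated ones, and the groups overlapped.

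In MNU cancers alone, 29 of the 30 subunit genes were lower in the mutated cancers, with a median log2 difference of -0.08, while after radiation and MNU 16 were higher and 14 lower. The difference between these 2 effects was positive for 29 of 30, with a median of 0.10, and the members with the smallest unadjusted p for it were Psmd9 (0.39), Psmd12 (0.27) and Psme3ip1 (0.18). No member passed in limma's test in either setting or for their difference (adjusted p of at least 0.664, 1 and 1; none at an unadjusted p under 0.05), as 0% of all genes did in each. The subunit genes move together from array to array, so these counts are not independent. The mean of the 30 subunit genes was 11.18, 11.45, 11.14 and 11.49 in nonmutated MNU cancers 1 to 4, and 11.22 ± 0.12 (SD) in the 5 mutated ones. Nonmutated MNU cancer 4 is the array with the hexokinase ratio of 12.3, and its part in these counts was not tested.

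The third comparison set radiation against no radiation, in 4 backgrounds of equal weight. No member passed in limma's test, where 0% of all genes did. Among the members the chaperone Psmd5 had the smallest unadjusted p, at -0.19 ± 0.08 (SE, unadjusted p = 0.0274, adjusted p = 0.46). Its means were 10.73 ± 0.29 after radiation against 10.80 ± 0.08 in spontaneous cancers, 10.54 ± 0.15 against 10.75 ± 0.22 with mutated MNU cancers, 10.47 ± 0.16 against 10.60 ± 0.33 with nonmutated MNU cancers and 10.48 ± 0.24 against 10.81 ± 0.25 with nonmutated PhIP cancers. The mean was lower after radiation in all 4 backgrounds, and the values of the arrays overlapped in each of them. Psmc2 at -0.11 and Psmc4 at -0.11 followed by unadjusted p.

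Over the 6 groups of nonmutated cancers no member passed limma's F test, where 0.00849% of all genes passed. The smallest unadjusted p among the members was that of Psmc3ip (unadjusted p = 0.0235, adjusted p = 0.494), followed by Psme2 (adjusted p = 0.603) and Psmc2 (adjusted p = 0.643). The group means of Psmc3ip were 9.23 after radiation, 8.68 after radiation and MNU, 9.01 after radiation and PhIP, 8.78 after MNU, 9.28 after PhIP and 9.31 in spontaneous cancers.

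The spontaneous cancers were last set against the other 19 nonmutated ones. No member passed in limma's test and none had an unadjusted p under 0.05, where 0.068% of all genes passed. The smallest unadjusted p values were those of Psmc3ip (9.31 ± 0.08 in spontaneous and 8.98 ± 0.34 in the other cancers, n = 3 and n = 19; log2 difference 0.32, adjusted p = 0.708), Psma6 (11.98 ± 0.08 and 12.14 ± 0.14; -0.16, adjusted p = 0.709) and Psmd5 (10.80 ± 0.08 and 10.61 ± 0.27; 0.19, adjusted p = 0.798).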

How the data were processed

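The authors deposited linear intensities, 1 for each probe set on each array. The sources used here do not give how probes were summarised or arrays scaled, and trimming 2% of the values from both ends left every array with a mean near 500.1. No further normalization was added. Gene symbols came from the platform annotation. Values were taken as log2(intensity + 42.8), the 20th percentile, so differences of dim genes are understated. Probe sets above 125.8 on at least 3 arrays were kept, and the brightest per symbol was used, which left 11773 genes. limma 3.58.1 in R 4.3.3 fitted 1 mean per group over 36 arrays, with Benjamini-Hochberg adjustment over all genes and a threshold of 0.05; the exact and permutation tests and the promoter motif search were run in Python 3.11.15. Arrays carry no depth, so their number limits precision. The PhIP mutated group held 1 array. That array entered all values over the 33 cancers, but not the other comparisons between cancer groups or the deviations from group means.

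In the comparison with normal tissue, the genes named with every value were the catalytic subunits, the activators and the members past the threshold (at most 6 rises and 4 falls). Elsewhere they were the 3 members with the smallest unadjusted p. From the lists they were all members of lists of up to 7, and otherwise up to 4 (3 for cell types) with the smallest adjusted p. Sem1, the interferon and cell cycle genes and the probe sets and correlations singled out beyond this were chosen after their values were seen. The members and lists were chosen with earlier results of these data known. Replicate numbers did not pair the arrays: deviations of same-numbered arrays had a mean correlation of 1.84e-05, beside 0.00118 for other numbers. The fit was tested on simulated data. Alternatives were a pseudocount of 16, no filter, quantile normalization, a replicate block, every probe set on its own, the hexokinase ratio as a covariate, equal weights for cancer groups and leaving out each array.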

Additional observations from a re-analysis of the deposited data

Results flagged for a closer look

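Over the 15 members named with tests in the report, 90 groups of 4 or 5 arrays were examined for a value far from the rest of its group. There were 4 such values in the 90 groups, no more than chance gives, since it flags about 1 group in 20. Psmb1, a structural beta subunit, stood at 12.4233 in radiation plus PhIP cancer 4, above the next highest of its group at 12.2919. Psmd12, a lid subunit, stood low in the same cancer at 10.1641, below 10.2464. Psmd9, an assembly chaperone of the base, stood at 9.00578 in mutated MNU cancer 2, above 8.71501. Psma6, an alpha-ring subunit, stood at 12.3312 in nonmutated radiation plus MNU cancer 4, above 12.0917.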

How the results depend on the processing

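In the comparison with normal tissue, Psme4 (lower) and Psme2 (higher) passed under every alternative run. The number of members higher in the cancers was 2. It was 7 with quantile normalization, which added Psma1, Psma4, Psma5, Psmb4 and Psmb7. With the hexokinase ratio as a covariate it was 6, which added Psma1, Psma4, Psmb4 and Psmd14. Testing every probe set on its own added a Psmd14 probe set (0.71, adjusted p = 0.017). Leaving out single arrays gave 1 to 4, with 4 without MNU nonmutated cancer 1 or 4 (Psma1 and Psmd14 added) or mutated radiation plus MNU cancer 3 (Psma1 and Psmb4 added), and 1 without normal replicate 3. Psmb4 passed without any of 10 single arrays, normal replicate 2 among them. The number lower was 2. It was 4 with every probe set on its own, where Psme4 counts 3 times, and leaving out single arrays gave 1 to 2, with 1 without normal replicate 2 or 3. Psmb7 passed with quantile normalization (0.24, adjusted p = 0.0311), and its adjusted p without single arrays ran from 0.238 to 0.594. The replicate block kept the same 4 calls (Psme4 at -1.17, 2 higher and 2 lower) and changed no other call. No named difference changed sign while its gene kept the same probe set. Of the 11 further probe sets tested on their own, 4 had the opposite sign to their gene's (Psme1 -0.53, Psmb5 -0.49, Psmd14 -0.21 and Psmd7 -0.13), and none of these passed. In the other comparisons the count was 0 in every setting run. The median correlation of the subunits, recomputed after the data were seen, was 0.71 to 0.77 without single arrays and 0.70 with quantile normalization. The cause of these changes was not tested. Precision is limited by the 3 normal tissues.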
